A study of Mus musculus with 71 samples.

Results

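γδ intraepithelial lymphocytes (IELs) of Btnl2-KO and wild-type (WT) mice were compared in single-cell RNA sequencing data from the duodenum, jejunum, and ileum. Cells were taken from 6 libraries, 1 for each genotype and segment, and were kept when they had at least 500 detected genes and at least 5 UMIs (unique molecular identifiers, each counted as 1 RNA molecule) of Cd3d, Cd3e, and Cd3g together. Of 23994 barcodes, 23644 (98.5%) were kept, with 3931, 3807, and 4658 cells in the duodenal, jejunal, and ileal Btnl2-KO libraries and 3953, 3592, and 3703 in the WT libraries. UMIs were then summed per library, so that each gene had 1 value per genotype and segment, and Btnl2-KO was compared with WT paired by segment. The whole series holds 71 samples.

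All mice were on the C57BL/6 background. The knockout allele carries LacZ at the Btnl2 start codon together with a selection cassette, and the WT mice were cohoused littermates. The labels give an age of 8 to 10 weeks for the single-cell samples, and the study's text gives an older age for the single-cell experiment. Cells were sorted as CD45+, negative for TCRβ, and positive for TCRγδ, and each single-cell library is a pool of several mice of 1 genotype. By the study's methods the 3 libraries of a genotype came from the same mice, so the 3 pairs are not 3 independent sets of animals and genotype cannot be told apart from the pool of mice. With 1 library per genotype and segment, a difference between segments in the effect of genotype cannot be tested.

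γδ IELs lie between the epithelial cells of the gut and carry cytolytic granules, NK cell receptors, and CD8αα. Their maintenance depends on the epithelium, which presents butyrophilin-like molecules to the γδ T cell receptor and provides cytokines. Btnl2 is a member of this butyrophilin-like family, encoded beside the MHC class II genes on chromosome 17, and is expressed by epithelial cells rather than by T cells.

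The 6 libraries held 18853185 to 27541700 UMIs after filtering, and the ileal Btnl2-KO library was the deepest. The median cell had 4865 to 5461.5 UMIs, 1987 to 2111 genes, and a mitochondrial share of 3.33 to 3.56%. Among kept cells, 357 barcodes occurred in more than 1 library (715 cells), and 142 cells had over 10% mitochondrial UMIs. LacZ was found in 15, 8, and 17 cells of the duodenal, jejunal, and ileal Btnl2-KO libraries and in 0 cells of every WT library, where a count of 0 allows up to 0.0759, 0.0835, and 0.081% of cells with a UMI, which does not limit the share of cells expressing it. Btnl2 had 0 UMIs in kept cells of the Btnl2-KO libraries. The WT libraries had 0, 4, and 1 Btnl2 UMIs in kept cells and 27, 7, and 5 in the barcodes left out, so Btnl2 could not be tested in γδ IELs.

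The sorted identity was checked against marker genes. The tables list no T cell receptor constant or variable genes, so Trdc could not be examined. Cd8a, Itgae, Cd7, Gzma, Gzmb, Cd160, Fcer1g, and Xcl1 were present in all 6 libraries, and the 10 measured identity genes made up 51940, 51390, and 56200 CPM (counts per 1000000 UMIs of the library) in the Btnl2-KO and 50200, 54790, and 55490 CPM in the WT duodenum, jejunum, and ileum. Cd4, a marker of αβ T cells, had 3 to 19 UMIs per library. The list of 3 αβ T cell genes summed to 1.60, 4.14, and 5.19 CPM in the Btnl2-KO duodenum, jejunum, and ileum and 3.25, 3.49, and 5.39 CPM in WT. The 12 pan-epithelial genes summed to 149.8 to 214.6 CPM in the Btnl2-KO and 176.7 to 203.9 CPM in the WT libraries, with none of the 12 at 0 over all libraries.

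The differences between Btnl2-KO and WT γδ IELs were few and mostly small. Of 11561 genes with at least 10 UMIs in at least 3 libraries, edgeR called 3 higher (0.0259% of genes tested) and 7 lower (0.0605%) in Btnl2-KO at an adjusted p below 0.05 and above 1.5-fold, 0.0865% in all. Without the minimum on fold, 31 genes passed (0.268%), of which 12 were higher (0.104%) and 19 lower (0.164%). An unadjusted p below 0.05 was reached by 1223 genes (10.6%), 643 of them higher (5.56%) and 580 lower (5.02%). Of the 31 genes, 30 lay on 1 side of WT in all 3 segments, and Apoa4 was the exception. With segment left out of the fit, the count fell to 0 in both directions (350 genes at an unadjusted p below 0.05). With DESeq2 in place of edgeR, 11 of the 31 passed, namely Gzmk, Cd6, Cd247, Mid1, Rcn3, A430005L14Rik, Klra7, Gm156, Ifi27l2a, Cela1, and ND4. In such sums, fewer cells of a type and less RNA per cell cannot be told apart. The 21 genes that passed only without the fold minimum are named here after their values were seen.

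**Figure D1:**
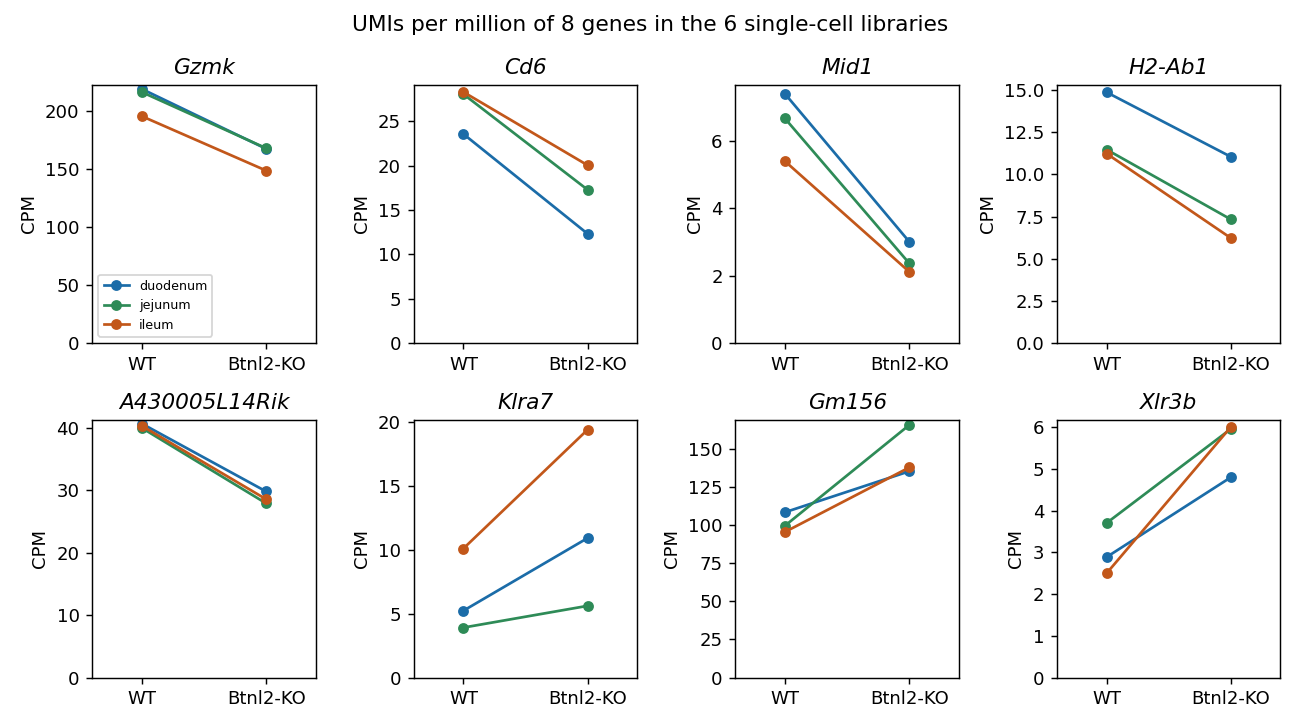
Level of 8 genes in each single-cell library, in counts per 1000000 UMIs (CPM, y axis, starting at 0), with WT on the left and Btnl2-KO on the right and a line joining the libraries of 1 segment. All 3 lines fall for Gzmk, Cd6, Mid1, H2-Ab1, and A430005L14Rik and rise for Klra7, Gm156, and Xlr3b; each point is 1 library, with no error of its own.

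Moving the same way by at least 1.5-fold in every segment was rarer still. No gene was higher in Btnl2-KO by this rule (0%) and 2 were lower (0.0173%), Mid1 and Capn11. By sign alone, 1984 genes (17.2%) were higher and 1827 (15.8%) lower in all 3 segments. Mid1, a microtubule-associated ubiquitin ligase whose gene lies at the edge of the pseudoautosomal region of the X chromosome (X:169685199-169990798, GRCm38.p6), had 62, 48, and 57 UMIs in the Btnl2-KO duodenum, jejunum, and ileum and 164, 126, and 108 in WT. The groups did not overlap, as for 8.63% of all genes (4.08% higher and 4.55% lower in Btnl2-KO), and the level was 2.59-fold lower in Btnl2-KO (log2 fold change -1.38 ± 0.13 SE, edgeR adjusted p = 0.00112). Counting intervals of the segment ratios (95%, exact binomial, counting error only) excluded 0 in each segment, from -2.01 to -0.87 on the log2 scale. Capn11, a calpain family protease gene on chromosome 17 (17:45630191-45659709), had 5, 8, and 6 UMIs against 27, 21, and 24 (log2 fold change -2.05 ± 0.34, edgeR adjusted p = 0.0354), at levels of at most 1.22 CPM. It reached 10 UMIs in the 3 WT libraries alone, so it entered the test only through the genotype in which it was high.

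The granzyme gene Gzmk and the T cell receptor signalling genes Cd6 and Cd247 were among those lower in Btnl2-KO, by modest amounts. Gzmk encodes granzyme K, a granule serine protease. Its level was 168, 168, and 149 CPM in the Btnl2-KO duodenum, jejunum, and ileum and 219, 216, and 196 CPM in WT. All 3 Btnl2-KO libraries lay below all 3 WT libraries, and the segment ratios were nearly equal, at -0.39, -0.36, and -0.39 on the log2 scale. This gave the smallest adjusted p of all genes (log2 fold change -0.38 ± 0.03 SE, edgeR adjusted p = 8.41e-05), a 1.30-fold lower level.

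Cd6, a scavenger-type receptor on T cells that binds Alcam, had 12.3, 17.3, and 20.1 CPM in Btnl2-KO and 23.6, 28.1, and 28.3 CPM in WT. The groups did not overlap, and the difference was widest in the duodenum and narrowest in the ileum (log2 ratios -0.89, -0.67, and -0.48; fitted -0.69 ± 0.08, edgeR adjusted p = 0.00205). Cd247 encodes the CD3ζ chain, which carries the activation motifs of the receptor complex. It was 1.19-fold lower, at 237, 242, and 262 CPM against 275, 291, and 313 CPM (edgeR adjusted p = 0.00118). Of the 17 tested genes of the T cell receptor signalling list, 10 were lower and 3 higher in all 3 segments, against 15.8 and 17.2% of all genes, and Cd6 and Cd247 were the 2 that passed. Lat, Lcp2, Ptprc, and Themis had log2 fold changes of -0.08, -0.07, -0.06, and -0.09 and did not pass, and Lck was at -0.01. Cd3d, Cd3e, and Cd3g were used to choose the cells.

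Other granule genes did not pass. Gzmb, which encodes granzyme B, was below WT in all segments with a log2 fold change of -0.17 ± 0.04 (edgeR adjusted p = 0.095), and Prf1, which encodes perforin, had -0.15 ± 0.04 (edgeR adjusted p = 0.14). Gzma had 0.00 ± 0.02. Of 14 cytolytic genes, 5 were lower and 1 higher in all segments, against 15.8 and 17.2% of all genes. Gzmk was the only one of them to pass, and their median log2 fold change was -0.02 against 0.00 over all genes tested. Their summed level had log2 ratios of 0.035, -0.115, and 0.006 in the duodenum, jejunum, and ileum.

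Rcn3, which encodes a calcium-binding protein of the endoplasmic reticulum, Adgre5, which encodes the adhesion receptor CD97, and Cxcr3, a chemokine receptor gene, were also lower. Rcn3 had 34.4, 28.4, and 27.8 CPM in Btnl2-KO and 45.1, 40.9, and 42.8 CPM in WT (edgeR adjusted p = 0.00118). Adgre5 and Cxcr3 had log2 fold changes of -0.48 ± 0.06 and -0.26 ± 0.04 (edgeR adjusted p = 0.00574 and 0.0361). None of the Btnl2-KO libraries reached a WT library for these 3 genes. Emp3, a membrane protein gene, was lower by less, with a log2 fold change of -0.18 ± 0.03. Of 17 homing and egress genes, 0 were higher and 6 lower in all segments, against 17.2 and 15.8% of all genes. Cxcr3 was the only one of them to pass, and Cxcr6 and Gpr18 had log2 fold changes of -0.13 and -0.09.

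A430005L14Rik, a protein-coding gene of unsettled function (4:153957237-153961925), was the most even of the lower genes. Its levels were 29.8, 27.9, and 28.6 CPM in Btnl2-KO and 40.7, 40.0, and 40.3 CPM in WT, a mean of 28.8 ± 0.964 against 40.3 ± 0.347 (SD, n = 3). The gap was far larger than the spread between segments (log2 fold change -0.49 ± 0.05, edgeR adjusted p = 0.00112). The long noncoding RNA 2610035D17Rik was lower as well (log2 fold change -0.39 ± 0.07, edgeR adjusted p = 0.0392).

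**Figure D2:**
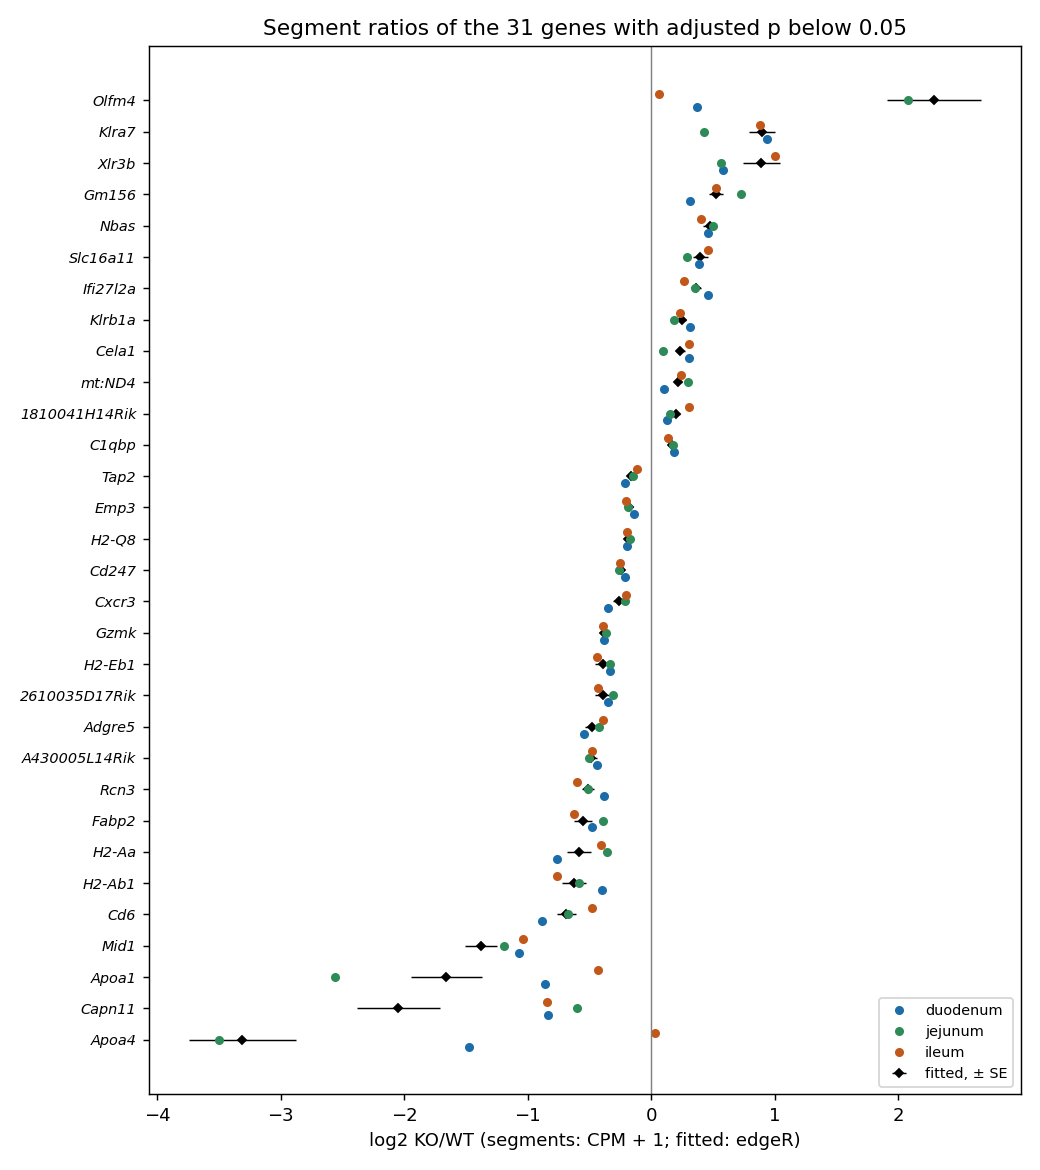
Log2 ratio of Btnl2-KO to WT in each segment (coloured points, from CPM + 1) and the edgeR log2 fold change with its standard error (black diamonds) for the 31 genes with an adjusted p below 0.05, ordered by fold change. The 3 segments lie close together for most genes, whereas Apoa4, Apoa1, and Olfm4 spread widely, with the jejunum farthest from 0.

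The NK cell receptor genes Klra7 and Klrb1a and the lectin-like receptor gene Gm156 were among those higher in Btnl2-KO. Klra7 encodes Ly49G, an inhibitory receptor for MHC class I. It had 225, 114, and 523 UMIs in the Btnl2-KO duodenum, jejunum, and ileum and 116, 74, and 202 in WT. Each Btnl2-KO library exceeded the WT library of its segment, but the groups overlapped because the level differed between segments (log2 fold change 0.89 ± 0.10, edgeR adjusted p = 0.00335). Klra7 lies in a family of near-identical genes between which reads can be split, so its value is uncertain.

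Gm156, now named Klrh1, encodes a lectin-like receptor of the same chromosome 6 gene complex (6:129766568-129784270). Its levels were 135, 165, and 138 CPM in Btnl2-KO and 108, 99.5, and 95.4 CPM in WT, without overlap (log2 fold change 0.53 ± 0.06, edgeR adjusted p = 0.00199). Klrb1a, which encodes NKR-P1A in the same complex, was 1.19-fold higher, with 99.8, 72.5, and 72.3 CPM against 80.0, 63.7, and 61.6 CPM (edgeR adjusted p = 0.0131). The list of NK receptors and adaptors does not hold Gm156, and of its 31 tested genes Klra7 and Klrb1a passed. Counting these 2, 9 of the 31 were higher and 7 lower in all segments, against 17.2 and 15.8% of all genes. The median log2 fold change of the list was 0.002, against 0.0029 over all genes tested. The adaptor gene Fcer1g had a log2 fold change of 0.12 ± 0.02 (edgeR adjusted p = 0.0904), and the adaptor genes Hcst and Tyrobp had -0.08 and -0.06.

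The remaining genes higher in Btnl2-KO had mixed roles. Xlr3b, an X-linked lymphocyte-regulated gene with close copies Xlr3a and Xlr3c, had 99, 121, and 162 UMIs in Btnl2-KO and 64, 70, and 50 in WT, a 1.85-fold higher level (edgeR adjusted p = 0.0354). Ifi27l2a, an interferon-induced gene, had 130, 105, and 88.4 CPM against 94.7, 82.5, and 73.2 CPM (log2 fold change 0.37 ± 0.04, edgeR adjusted p = 0.00118). Of 38 tested interferon-induced genes it was the only one to pass, while 5 lay above and 9 below WT in all segments, against 17.2 and 15.8% of all genes, and Irf7 and Gbp4 were among the 9, with log2 fold changes of -0.08 and -0.12. Nbas, which acts in transport between Golgi and endoplasmic reticulum, and Slc16a11, a monocarboxylate transporter family member, had log2 fold changes of 0.47 ± 0.06 and 0.40 ± 0.06. Cela1, an elastase gene, C1qbp, which encodes a mitochondrial matrix protein, and the long noncoding RNA 1810041H14Rik rose by 1.18-, 1.12-, and 1.15-fold. In cells thinned to 1500 UMIs the log2 fold change of C1qbp was 0.06 in place of 0.17 and did not pass (edgeR adjusted p = 0.8).

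MHC genes near Btnl2 were lower in Btnl2-KO cells. The class II genes H2-Ab1, H2-Aa, and H2-Eb1 encode chains of the molecule that presents peptides to CD4+ T cells. They start at 34263227, 34282744, and 34305867 on chromosome 17, beside Btnl2 (17:34354789-34369492). H2-Ab1 had 228, 149, and 168 UMIs in the Btnl2-KO duodenum, jejunum, and ileum and 330, 217, and 225 in WT, a 1.54-fold lower level (edgeR adjusted p = 0.025). H2-Aa had 229, 147, and 200 UMIs against 433, 181, and 203, and H2-Eb1 had 420, 281, and 364 against 576, 334, and 374 (edgeR adjusted p = 0.0354 and 0.029). Every Btnl2-KO library had a lower CPM than the WT library of its segment for all 3 genes. These are low levels for class II genes, and the barcodes left out of the cell set contained them more often than the kept cells did (10.1% of left-out barcodes against 0.751 to 2.21% of kept cells for H2-Aa, each thinned to 1500 UMIs). B and plasma cell genes summed to 300, 246, and 194 CPM in Btnl2-KO and 288, 249, and 203 CPM in WT. Myeloid genes summed to 8.87, 7.58, and 8.86 against 9.56, 7.98, and 8.94 CPM. An alternative chosen after these values were seen left out cells with at least 10 UMIs of epithelial, B cell, myeloid, or mast cell genes. There H2-Ab1, H2-Aa, and H2-Eb1 had log2 fold changes of -0.617, -0.582, and -0.393, against -0.626, -0.588, and -0.39 with all kept cells. The part of other cell types in the class II values was not tested.

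Tap2, a subunit of the transporter that brings peptides to class I, was lower by 1.12-fold (log2 fold change -0.16 ± 0.03, edgeR adjusted p = 0.0478). Among 21 tested class I and antigen processing genes, 12 were lower and 1 higher in all segments, against 15.8 and 17.2% of all genes. Tap2 was the one that passed, and H2-D1, H2-K1, Psmb8, and Psmb9 had log2 fold changes of -0.09, -0.07, -0.07, and -0.12. B2m, which encodes the light chain shared by class I molecules, had 0.03. H2-Q8, a class I gene outside that list with close copies, was lower at -0.19 ± 0.03 (edgeR adjusted p = 0.025). Of 87 tested genes that start within 1000000 bases of Btnl2, 20 (23%) had an unadjusted p below 0.05, of which 18 were lower in Btnl2-KO. Of the 87, 4 (4.6%) passed, namely Tap2 and the neighbouring class II genes H2-Ab1, H2-Aa, and H2-Eb1. Elsewhere 10.4% of genes had an unadjusted p below 0.05, 561 of 1189 of them lower, and 26 of 11407 (0.228%) passed. The calls of these MHC genes depended on the settings: H2-Ab1, H2-Aa, H2-Eb1, and Tap2 all missed the adjusted p with DESeq2 (0.295 for H2-Ab1 and higher for the others). H2-Ab1, H2-Eb1, and Tap2 also missed it in thinned cells (edgeR adjusted p = 0.256, 0.0516, and 0.26) and without the jejunum (0.0646, 0.0646, and 0.185), and H2-Aa without the duodenum (0.113).

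Ribosomal protein genes and genes of the mitochondrial genome lay slightly above WT as groups. Of 81 tested ribosomal protein genes, 56 were higher and 2 lower in all 3 segments, against 17.2 and 15.8% of all genes, and 0 passed the adjusted p. Their sum was 169900, 180000, and 178800 CPM in the Btnl2-KO duodenum, jejunum, and ileum and 165500, 170100, and 173000 CPM in WT. Every Btnl2-KO sum exceeded the WT sum of its segment, and the median gene had a log2 fold change of 0.06 against 0.00 over all genes. Of the 13 mitochondrially encoded genes, 10 were higher and 0 lower in all segments, and ND4, a subunit of complex I, was the one that passed (log2 fold change 0.21 ± 0.03, edgeR adjusted p = 0.0198). Their sum was 25930, 27260, and 25210 CPM against 25000, 25300, and 23870 CPM. With every cell thinned to 1500 UMIs, 43 ribosomal protein genes and 11 mitochondrially encoded genes were higher in all segments.

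**Figure D3:**
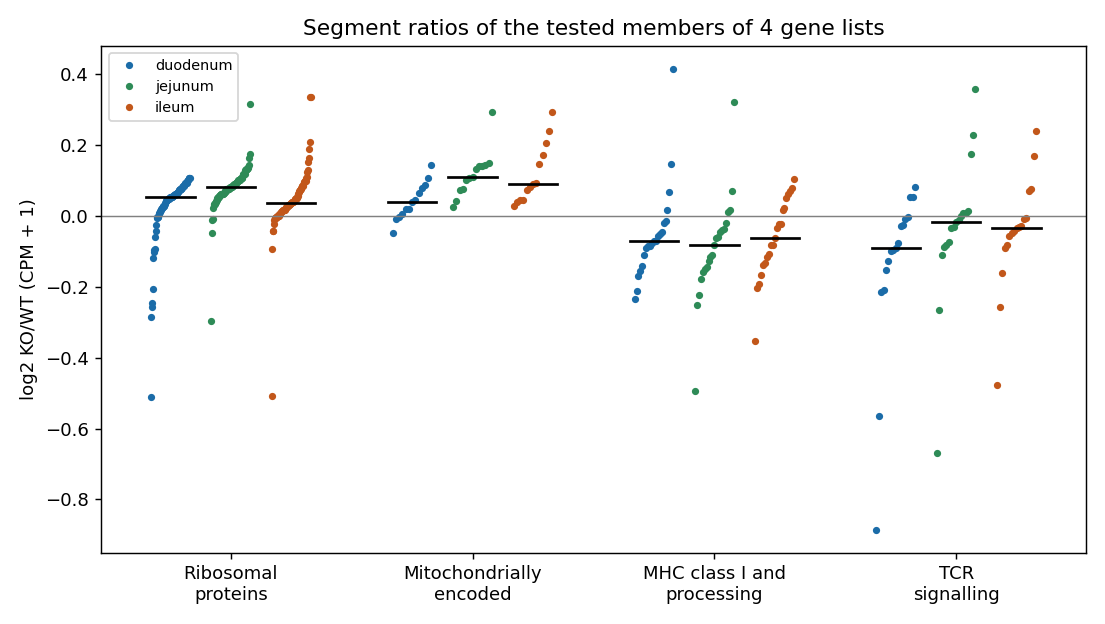
Log2 ratio of Btnl2-KO to WT (y axis, from CPM + 1) for each tested member of 4 gene lists, by segment; each point is 1 gene, ordered by value, and the black line is the median. Medians lie above 0 in all 3 segments for ribosomal protein and mitochondrially encoded genes and below 0 for MHC class I and T cell receptor signalling genes.

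Programmes of proliferation, activation, and lineage showed no gene past the adjusted p. Of 27 cell cycle genes, 1 was higher and 2 lower in all segments, against 17.2 and 15.8% of all genes, and the median log2 fold change was -0.04. Of 26 immediate-early genes, 2 were higher and 1 lower, and of 10 heat shock genes 5 were higher and 0 lower, with Dnajb1 at 0.14 ± 0.03 (edgeR adjusted p = 0.095). Of 23 transcription factor genes, 7 were higher and 3 lower, with Tbx21 and Prdm1 at -0.11 and -0.25 and Ikzf2 at 0.09. The chemokine genes Ccl5 and Xcl1 had log2 fold changes of 0.02 ± 0.03 and 0.29 ± 0.06, and neither passed. Of 27 cytokine receptor and survival genes, 7 were higher and 6 lower. Of 20 genes the study names for ileal γδ IELs, 4 had enough UMIs to test, and the 1 at an unadjusted p below 0.05 was Id1 (5, 9, and 8 UMIs against 14, 13, and 13), which reached 10 UMIs in the WT libraries alone and so entered the test only through the higher genotype. That list was chosen on libraries of this series and is not independent evidence.

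Some of the largest fold changes rested on single cells. Apoa4 and Apoa1, apolipoprotein genes of absorptive epithelium, were called lower, and Olfm4, an intestinal crypt gene, was called higher. Of the 289 Apoa4 UMIs of the WT jejunum, 198 lay in 1 cell, as did 304 of its 466 Apoa1 UMIs. Of the 143 Olfm4 UMIs of the Btnl2-KO jejunum, 137 lay in 1 cell, and of its 2044 UMIs of the mast cell protease gene Mcpt1, 2040 lay in 1 cell. Lyz1, a Paneth cell gene, and Itln1, an intelectin gene, had 361 of 476 and 330 of 407 UMIs in 1 cell of the same library.

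With the 681 cells (2.88%) left out that held at least 10 UMIs of epithelial, B cell, myeloid, or mast cell genes, an alternative chosen after these values were seen, Apoa4 and Olfm4 fell below the count filter. Apoa1 turned to 0.17 and Fabp2, an enterocyte fatty acid binding protein gene that had been lower (log2 fold change -0.55 ± 0.07), to -0.01, neither past the adjusted p (edgeR, 0.809 and 0.976). Apoa4, Apoa1, Fabp2, and Olfm4 are themselves counted among those epithelial genes, so what became of them there was fixed in part by that choice. The other 27 of the 31 genes passed again, among 20 higher and 21 lower. Without the jejunal pair, 17 of the 31 genes passed the adjusted p.

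**Figure D4:**
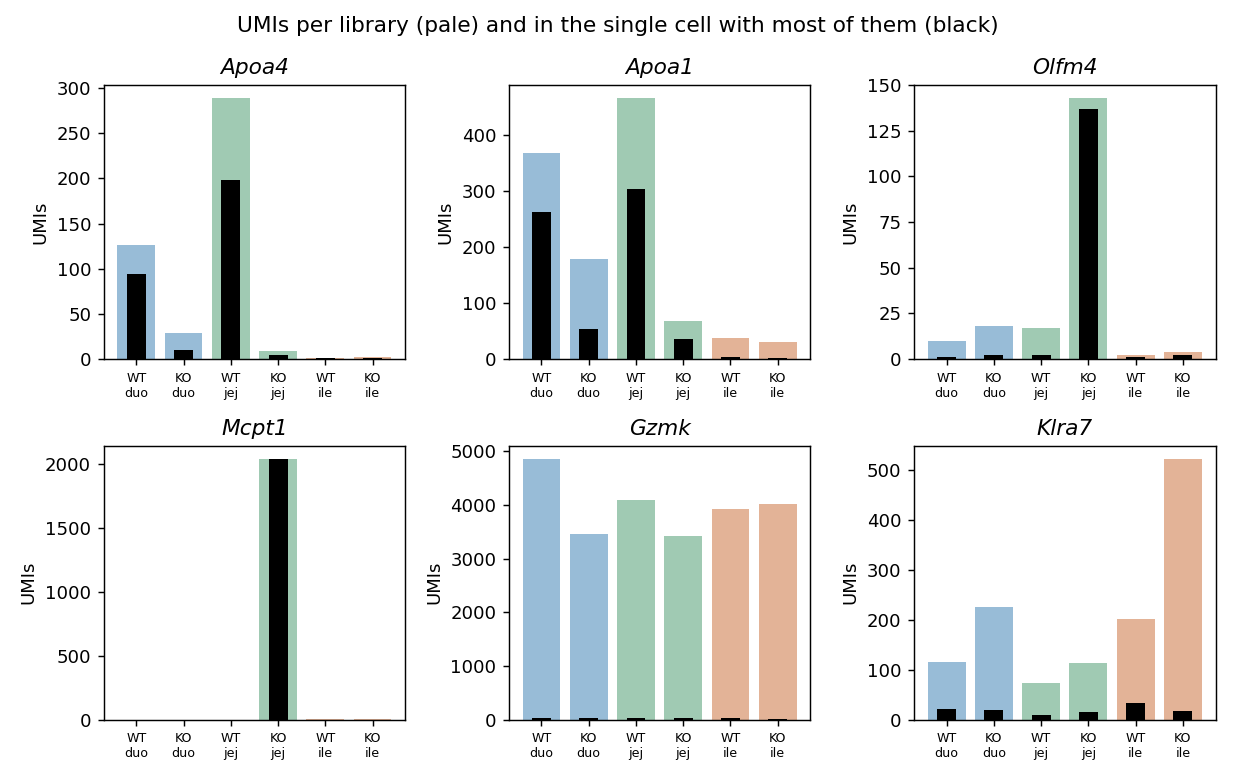
UMIs of 6 genes in each library (pale bars, from 0) and in the single cell that held most of them (narrow black bars), with WT and KO side by side by segment. Black bars fill most of the tall bars of Apoa4, Apoa1, Olfm4, and Mcpt1, whereas those of Gzmk and Klra7 are small.

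Gzmk was found in many cells of every library. After each cell was thinned to 1500 UMIs, 16.7, 18.1, and 15.5% of Btnl2-KO cells and 22.3, 21.8, and 19.6% of WT cells of the duodenum, jejunum, and ileum had a Gzmk UMI. Without thinning the shares were 31.6, 32.5, and 31.6% against 41.5, 39.8, and 35.8%. Thinning left out 23, 12, and 0 Btnl2-KO cells and 15, 17, and 0 WT cells with fewer UMIs. Among 335 barcodes left out of the cell set, which had medians of 3105 to 5602 UMIs per library, 0.597% had a Gzmk UMI when thinned. These barcodes were left out for few CD3 UMIs or few detected genes. Low shares of T cell genes in them, here and below, therefore follow in part from how they were chosen. Cells with a Gzmk UMI held 1.44, 1.46, and 1.45 of them on average in Btnl2-KO and 1.53, 1.58, and 1.5 in WT. A lower level per cell also lowers the share of cells with a UMI, so these values do not separate fewer cells from less RNA per cell.

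The other receptor genes were carried by fewer cells. Cd6 was found in 1.59, 2.11, and 2.98% of thinned Btnl2-KO cells and in 3.45, 3.83, and 3.65% of WT cells, and in 0 of the 335 left-out barcodes, which allows up to 0.896% of barcodes with a UMI. Gm156 was found in 8.37, 9.88, and 8.35% against 6.50, 6.91, and 6.00%. Klra7 was found in 32, 20, and 71 thinned Btnl2-KO cells and 20, 17, and 28 WT cells, so that 17 to 71 cells per library set its thinned value.

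Cells were also divided by whether they had a thinned Gzmk UMI, and the other genes were compared within each part as a description. The part without includes cells that had a Gzmk UMI before thinning, so the parts are not cells that express Gzmk and cells that do not. Gzmk itself differed between the genotypes in these data, so each part may hold unlike cells in Btnl2-KO and WT. Ratios within the parts therefore cannot show whether a gene changed apart from Gzmk. Cd6 was lower in Btnl2-KO in both: the log2 ratios in the duodenum, jejunum, and ileum were -1.31, -1.22, and -0.53 in cells with Gzmk and -1.05, -0.88, and -0.26 in cells without. These rested on few Cd6 UMIs, with 15, 17, and 26 in Btnl2-KO and 50, 45, and 38 in WT cells with Gzmk. In cells without there were 56, 69, and 137 in Btnl2-KO and 109, 114, and 124 in WT. Gm156 was higher in both, at 0.95, 1.31, and 0.96 with Gzmk and 0.27, 0.72, and 0.52 without. In cells with Gzmk these rested on 62, 113, and 87 Gm156 UMIs in Btnl2-KO and 43, 52, and 45 in WT. Cxcr3 had ratios of 0.00, 0.13, and -0.03 in cells with Gzmk and -0.43, -0.26, and -0.22 in cells without. Cells with Gzmk held only 56, 52, and 72 Cxcr3 UMIs in Btnl2-KO and 75, 54, and 74 in WT, and the difference between the parts was not tested. Cd8a ratios lay between -0.04 and 0.09 in both parts.

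The same genes were then examined in 22 bulk libraries of sorted γδ IELs, 10 from Btnl2-KO and 12 from WT mice labelled as 10 weeks old, each from a pool of mice. The study's methods state that each sorted sample was divided between bulk and single-cell sequencing, but the labels give different ages for the 2 kinds of library, so whether they share mice is uncertain and the bulk libraries are not taken as independent animals. Libraries of different segments also share mice, which the fit did not take into account, so bulk p-values may be too small or too large. With segment in the fit, edgeR called 1 gene higher and 1 lower (0.00797% each of 12547 tested), and 183 genes (1.46%) had an unadjusted p below 0.05, 101 higher (0.805%) and 82 lower (0.654%). The lower gene was Btnl2, with 0 to 0.124 CPM in Btnl2-KO and 2.48 to 9.77 CPM in WT libraries. The higher one was identifier ID807225, which has no symbol here, at 0.576 to 2.59 CPM in Btnl2-KO and listed at 0 in all WT libraries. It passed the count filter through its 10 Btnl2-KO libraries alone.

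Of the 31 single-cell genes, 29 had a bulk value. The sign was the same for 24, against 55.7% of the 11048 genes tested in both. Whatever the sign, 10 of the 29 had an unadjusted bulk p below 0.05, against 1.45% of the 11048. All 10 were among the 24 of the same sign, and none of the 5 with the opposite sign reached it. A430005L14Rik had 23.9, 42.5, and 59.6 CPM (lowest, median, highest) in Btnl2-KO and 43.2, 61.3, and 82.7 CPM in WT bulk libraries, with overlap (log2 fold change -0.52 ± 0.13, edgeR unadjusted p = 0.000576), and none of the 29 genes passed the adjusted p in bulk. H2-Eb1 had 22.1, 46.4, and 71.0 CPM against 39.5, 67.7, and 161 CPM, and H2-Aa 13.8, 41.1, and 71.0 CPM against 25.1, 48.2, and 173 CPM (edgeR unadjusted p = 0.00428 and 0.0175). Cd6 had 16.2, 37.2, and 59.7 CPM against 27.5, 46.3, and 92.9 CPM (log2 fold change -0.51 ± 0.19, edgeR unadjusted p = 0.0128).

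Klra7 had 4.47, 18.0, and 30.3 CPM in Btnl2-KO and 5.42, 8.32, and 22.1 CPM in WT bulk libraries (log2 fold change 0.99 ± 0.31, edgeR unadjusted p = 0.00468). Gm156 had 64.5, 97.7, and 524 CPM against 41.7, 75.3, and 105 CPM, and the value of 524 came from 1 jejunal Btnl2-KO library. Its bulk log2 fold change was 0.85 and lay between 0.47 and 0.94 with each library left out in turn. Xlr3b, Slc16a11, Cela1, and 2610035D17Rik were the other genes of the same sign with an unadjusted bulk p below 0.05, at log2 fold changes of 1.13, 0.60, 0.41, and -0.43. The groups overlapped for every gene given here except Btnl2 and ID807225.

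Gzmk differed by less than its spread in bulk. It had 68.7, 85.6, and 181 CPM in Btnl2-KO and 83.9, 101, and 160 CPM in WT libraries (log2 fold change -0.13 ± 0.15, edgeR unadjusted p = 0.393), with segment differences of -0.42, 0.06, and -0.05 in the duodenum, jejunum, and ileum. Cd247 and Nbas had bulk log2 fold changes of 0.00 ± 0.13 and 0.02 ± 0.11. For Mid1 the bulk value was -0.99 ± 0.53 (edgeR unadjusted p = 0.0761) and rested largely on 1 duodenal WT library at 5.69 CPM, without which it was -0.52. Among lists, 80 of 81 ribosomal protein genes and 25 of 26 NK receptor and adaptor genes were above 0 in bulk, against 6590 of 12547 genes, with medians of 0.24 and 0.28. The 3 CD3 genes were also above 0 in bulk, with a median of 0.24. None of those ribosomal protein genes and 2 of those NK receptor and adaptor genes had an unadjusted p below 0.05. All 12 pan-epithelial genes were below 0 in bulk, with a median of -0.42, and their part in these results was not tested. The MHC class I list had 13 genes above and 9 below 0 in bulk. T cell receptor signalling genes had 10 above and 8 below, and homing and egress genes 11 and 6. Cytolytic genes had 10 and 4, and interferon-induced genes 27 and 13. In this order, from MHC class I on, their bulk medians were 0.016, 0.021, 0.03, 0.102, and 0.036. Their single-cell medians were -0.091, -0.051, -0.055, -0.021, and -0.069.

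**Figure D5:**
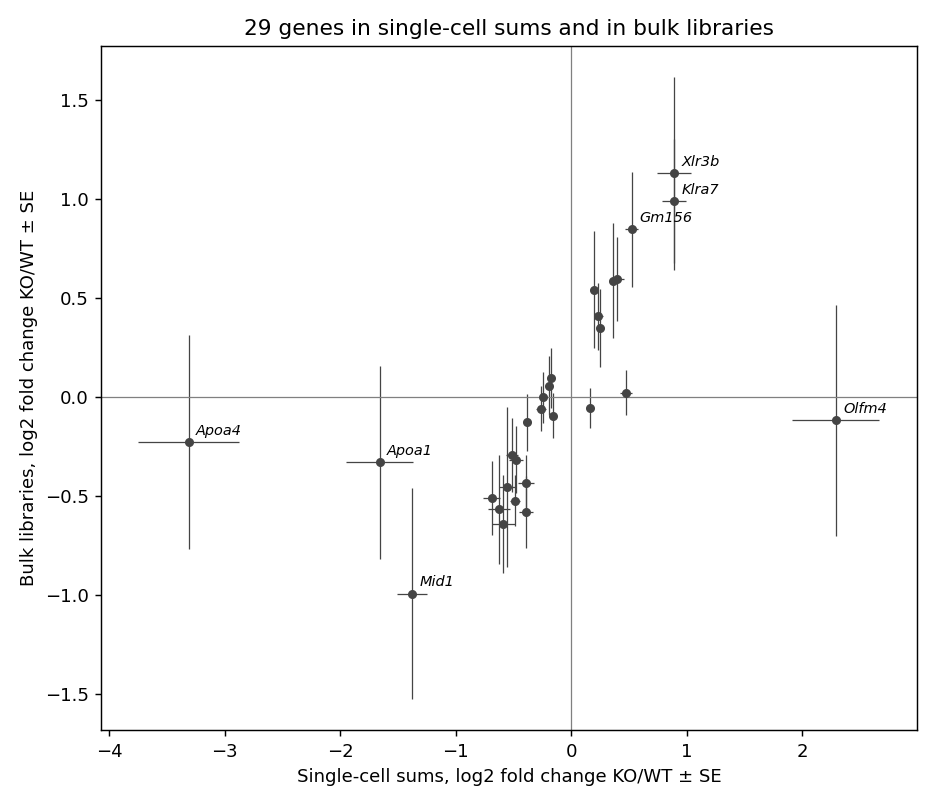
Log2 fold change of Btnl2-KO to WT with its standard error in the single-cell sums (x axis) and in the 22 bulk libraries (y axis) for 29 genes. Most genes lie in the lower left or upper right, whereas Olfm4 and Apoa4, at 2.29 and -3.31 in the single-cell sums, lie near 0 in bulk with wide errors.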

How the data were processed

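Droplet 5′ single-cell libraries were, per the study's methods, aligned to mm10 with a RefSeq gene model and counted with Cell Ranger. The authors deposited UMI counts per gene and barcode, neither normalized nor filtered for T cells. For the bulk tables the authors deposited estimated counts made with RSEM from sense-strand exon reads, and each was rounded to a whole number before testing. Of the bulk columns, 1 matched no sample label and was not used. Each sample took its genotype and segment from its label.

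Cells were filtered as stated in the report, with no doublet caller, and UMIs were summed per symbol (327 symbols over several rows) and library. The main test was edgeR 4.0.16 (R 4.3.3; quasi-likelihood, TMM) with segment as a block, and genes were called at a Benjamini-Hochberg adjusted p below 0.05 and above 1.5-fold. The block pairs the libraries that share a segment, which the labels give. Standard errors came from the fold change and F statistic. Segment ratios are of log2(CPM + 1). Bulk genes needed 10 counts in 10 libraries, and bulk totals were 13444958 to 30029485 counts. Scripts were tested on simulated data. Values of p measure only how alike the difference was over segments or pools. Intervals cover counting error only. Coordinates are from RefSeq on GRCm38.p6, matched by symbol (11494 of 11561 tested genes).

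The genes named are Btnl2, genes called on 1 side in all segments, genes at 1.5-fold in all segments, list members that were called or had the highest level, and the genes the paper names for ileal IELs; others were named after their values were seen. The cells, lists, and rules were chosen with earlier results of these data known. Alternatives changed the cell filters, thinned cells to 1500 UMIs, or used DESeq2 1.42.0, limma-voom (limma 3.58.1), other size factors, other count filters, no block, or left out segments and libraries.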

Additional observations from a re-analysis of the deposited data

Results flagged for a closer look

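LacZ, which is no gene of the comparison, had 16, 8, and 20 UMIs in the kept cells of the duodenal, jejunal, and ileal Btnl2-KO libraries and 0 in the WT libraries. Apoa4 had a log2 ratio of 0.033 in the ileum, from 2 and 1 UMIs, opposite in sign to the duodenum and jejunum, and this difference between segments was not tested. In the 4 bulk groups of 4 libraries, single libraries stood apart from the others of their group for 5 of 44 combinations of gene and group. How often chance gives such a library was not tested. Gm156 was at 524 CPM in 1 jejunal Btnl2-KO library and at 91.9 to 106 CPM in the other libraries of that group. Xlr3b was at 19.5 CPM in 1 jejunal WT library and at 2.99 to 4.09 CPM in the others. Mid1 was at 5.69 CPM in 1 duodenal WT library and at 0.204 to 1.05 CPM in the others. A430005L14Rik was at 49.3 CPM in 1 jejunal WT library and at 43.2 to 43.8 CPM in the others. Btnl2 was at 0.0435 CPM in 1 jejunal Btnl2-KO library and listed at 0 in the others.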

How the results depend on the processing

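The counts of genes called in single cells, 3 higher and 7 lower, were 0 and 2 with at least 1 CD3 UMI in place of 5, 17 and 14 without a filter on low counts, 1 and 2 with DESeq2, 0 and 0 without the replicate block, and 12 and 19 with no minimum on the fold change. Lower genes were 3 with cells thinned to 1500 UMIs and 4 without cells with 10 UMIs of other cell types, which was added after seeing the data. Leaving out 1 segment pair gave 1 to 16 higher and 5 to 15 lower genes: 16 and 15 without the duodenum, 1 and 5 without the jejunum, and 13 and 7 without the ileum. Genes moving the same way by 1.5-fold, 0 higher and 2 lower, were 3 higher in thinned cells and 8 lower with at least 1 CD3 UMI. They were 1 lower with at least 1000 detected genes, without cells above the 98th percentile of UMIs, without cells with 10 UMIs of other cell types, and at 2-fold, and 1984 and 1827 by sign only. With library totals in place of TMM, the counts by sign became 1421 higher and 2406 lower. Ribosomal protein genes then had 38 higher and 2 lower in place of 56 and 2. Interferon-induced genes had 4 and 12 in place of 5 and 9, and homing and egress genes 0 and 8 in place of 0 and 6. Sign counts of lists and the shares over all genes therefore depend on the normalization. In bulk, the higher gene was lost (0) when any 1 of the 10 Btnl2-KO libraries was left out, which lowers the number of libraries that can reach the count minimum, so leave-one-out counts were 0 to 1 higher and 1 lower, and limma-voom with sample quality weights called 2 lower. Fold changes of the 31 genes kept their direction in every alternative in which they could be tested, except Apoa1 without cells with 10 UMIs of other cell types (0.17). UMIs of Apoa1 itself count toward leaving out those cells. None of the 31 passed the adjusted p in every alternative, since all 31 were lost without the block; 27 were lost with at least 1 CD3 UMI, 20 with DESeq2, 13 in thinned cells, and 11 without the jejunum. Apoa4, Capn11, and Olfm4 fell below the count filter in thinned cells and without the jejunum and are not among those 13 and 11, so 15 and 17 of the 31 passed there. Gzmk, Mid1, and A430005L14Rik were lost only without the block. The causes were not tested. Genes below 10 UMIs in 4 of 6 libraries could not be tested at this depth.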
